A study of Mus musculus with 12 samples.

Results

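Pgk1 and Gapdh encode neighbouring enzymes of glycolysis, and the arrays of this study carried control probes named for both mouse genes. The 2 genes were read by 4 control probes, taken by their names: Mouse-PGK1_3 and Mouse-PGK1_5 for the 3′ and 5′ ends of Pgk1, and Mouse-GAPDH_3 and Mouse-GAPDH_5 for those of Gapdh. Each had 10 spots on every array, beside 97836 probes outside the controls. Of the probes outside the controls, 78070 had 2 spots and 19766 had 1. RNA came from vascular smooth muscle cells (VSMCs), grown in culture from male mice, the contractile cells of the vessel wall. The floxed cells (Hif1afl/fl) carried floxed, intact alleles of Hif1a, and the deleted cells (Hif1a△SMC) a disruption of Hif1a specific to VSMCs. Cells of each genotype were kept for 24 h in smooth muscle cell medium with serum and either 150 µM CoCl2 or the same volume of PBS, which gave 4 groups of 3 arrays: floxed PBS, floxed CoCl2, deleted PBS and deleted CoCl2. The Cre driver, the age of the mice and whether cells were pooled are not given in the sources used here, nor is the culture or animal behind each array. The p-values therefore cover the spread between these samples alone, which may be technical.

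In glycolysis, glyceraldehyde-3-phosphate dehydrogenase (Gapdh) oxidises its substrate and makes NADH, and phosphoglycerate kinase 1 (Pgk1) takes the product and makes ATP without oxygen. Hif1a encodes HIF-1alpha, the subunit of hypoxia-inducible factor 1 (HIF-1) that is stable only at low oxygen. HIF-1 binds a short DNA core and raises transcription of many glycolytic enzymes, Pgk1 among the textbook targets. Cobalt ions block the prolyl hydroxylases that mark HIF-1alpha for destruction, so CoCl2 is widely used to mimic low oxygen. Gapdh is often used as a reference gene in expression work. The comparisons below address how both transcripts stood with CoCl2, with and without Hif1a.

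The promoters of both genes are shown because the HIF core can be read in them directly. It was searched on both strands as ACGTG and, with another first base, as GCGTG. The 250 bases before the RefSeq start site of Pgk1 (GRCm38.p6, chrX:106186850-106187099, plus strand) and of Gapdh (GRCm38.p6, chr6:125165774-125166023, minus strand) are printed 5′ to 3′ with each core in capitals.
Pgk1: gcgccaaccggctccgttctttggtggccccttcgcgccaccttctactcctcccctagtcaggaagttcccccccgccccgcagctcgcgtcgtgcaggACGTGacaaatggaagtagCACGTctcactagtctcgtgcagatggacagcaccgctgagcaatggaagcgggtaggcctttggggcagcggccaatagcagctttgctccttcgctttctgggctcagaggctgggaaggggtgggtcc
Gapdh: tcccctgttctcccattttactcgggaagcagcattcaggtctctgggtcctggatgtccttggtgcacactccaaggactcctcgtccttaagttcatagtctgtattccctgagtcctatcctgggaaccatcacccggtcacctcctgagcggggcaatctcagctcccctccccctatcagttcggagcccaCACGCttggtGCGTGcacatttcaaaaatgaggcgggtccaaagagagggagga
Pgk1 held 2 ACGTG cores, 1 on each strand, which begin 150 and 131 bases before the start site. Gapdh held 2 GCGTG cores, 1 on each strand, which begin 54 and 44 bases before it. Neither ACGTG core of Pgk1 lay within CACGTG, the E-box that contains ACGTG. The letters of GCGTG cannot lie within it. At least 1 ACGTG was present in 16.6%, and at least 1 GCGTG in 28.2%, of 32851 RefSeq windows of the same length, and 16.7% of windows held 2 or more cores of either kind. The GC content was 62.8% in the Pgk1 window and 55.6% in the Gapdh window, against a median of 52.4%. A match of letters is a description and no evidence of binding.

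A level here is the log2 signal of a probe, averaged over its unmarked spots, minus the 75th percentile of log2 signal over the spots outside the controls of the same array. All 480 member spots were well above background and none was saturated. The brightest spot, of the Gapdh 5′ probe, reached 11.6% of the scanner's saturation value. Of the 10 spots of a probe on an array, those without outlier marks had a standard deviation of 0.026 to 0.129 (log2). The standard error of their mean was at most 0.041. With its 1 marked spot included, the Pgk1 5′ probe on floxed CoCl2 array 1 had a standard deviation of 0.942. Spots of an array are technical repeats, and the comparisons rest on arrays. The probe letters are not in the files, so the gene and the end come from the probe names. Mouse cells carry many Gapdh pseudogenes and a second Pgk gene, Pgk2, and whether the probes also read their RNA was not tested.

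The deleted CoCl2 arrays stood apart from the other 9. Their 75th percentile of log2 signal was 8.20 to 8.39, against 9.14 to 9.27 with PBS in deleted cells and 9.23 to 9.62 in floxed cells. Between 51.9% and 58.5% of probes were well above background on these 3 arrays and between 67.7% and 82.7% on the other 9. The arrays lay on 3 slides: the floxed PBS group with array 1 of floxed CoCl2 on slide 1, the rest of floxed CoCl2 with arrays 1 and 2 of deleted PBS on slide 2, and deleted PBS array 3 with the deleted CoCl2 group on slide 3. The scan of deleted CoCl2 array 2 followed that of the other arrays by 4 days. Beyond the control probes, none of 24 other glycolysis genes, 21 HIF genes (Hif1a included) and 17 markers of other cell types was matched to a probe, and of 8 smooth muscle markers only Cald1 did, through a cDNA clone. The disruption of Hif1a, the rest of the pathway and the cell type were therefore not checked here. Shares, ranks and the median feature below refer to probes outside the controls, where no listed gene but Cald1 was matched. They are no comparison with other mRNAs of the pathway, and the kinds of RNA those probes read were not tested.

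Pgk1 rose with CoCl2 in floxed cells at both ends of the transcript. Mouse-PGK1_3 stood at 3.73, 3.56 and 3.83 on the floxed PBS arrays and at 5.36, 5.32 and 5.61 on the floxed CoCl2 arrays. Every CoCl2 array lay above every PBS array, with a gap of 1.49 between the nearest arrays, and 13.4% of all features were higher without overlap in this contrast. The rise was 1.72 on the log2 scale, or 3.30-fold (SE 0.16, n = 3 per group, limma adjusted p = 0.000345 over all rows). Mouse-PGK1_5 stood at 0.90, 0.77 and 1.00 with PBS and at 2.65, 2.62 and 2.86 with CoCl2. It rose by 1.82, or 3.53-fold (SE 0.18, limma adjusted p = 0.000607), and again the groups did not overlap. Of 70909 features tested in this contrast, 2.31% passed and were higher, and 2.69% passed and were lower. There were 245 features with a larger difference than the 3′ probe and 210 with a larger one than the 5′ probe, and the median feature stood at 0.02.

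Pgk1 also rose with CoCl2 in deleted cells. Mouse-PGK1_3 stood at 4.37, 4.18 and 4.36 on the deleted PBS arrays and at 6.02, 6.20 and 5.79 on the deleted CoCl2 arrays, a rise of 1.70, or 3.25-fold (SE 0.16, limma adjusted p = 3.53e-05). Mouse-PGK1_5 stood at 1.35, 1.10 and 1.26 with PBS and at 3.20, 3.74 and 3.06 with CoCl2, a rise of 2.10, or 4.28-fold (SE 0.18, adjusted p = 2.78e-05). The groups did not overlap for either probe, as for 24.1% of all features in this direction. Deleted CoCl2 array 2, the one scanned later, was the highest for both, and without it the rises were 1.60 and 1.89. In this contrast 19.9% of features passed and were higher, 32.9% passed and were lower, and the median feature stood at -0.14. The difference between the genotypes' responses was -0.022 for the 3′ probe (95% interval -0.51 to 0.46, adjusted p = 0.951) and 0.28 for the 5′ probe (-0.29 to 0.85, adjusted p = 0.469). The intervals include responses that differ by up to these bounds. Without scaling, the difference of the 3′ probe was -0.81 and passed (limma adjusted p = 0.0404), and that of the 5′ probe was -0.51 (adjusted p = 0.23). Among all features 2.61% passed this test as higher and 18.2% as lower.

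With CoCl2 the differences of Gapdh were smaller than those of Pgk1. In floxed cells Mouse-GAPDH_3 stood at 3.93, 4.03 and 4.11 with PBS and at 4.81, 4.81 and 5.00 with CoCl2. This was a rise of 0.85, or 1.80-fold (SE 0.13, n = 3 per group, limma adjusted p = 0.00482). Mouse-GAPDH_5 stood at 6.23, 6.34 and 6.45 with PBS and at 6.87, 6.65 and 6.84 with CoCl2. Its groups did not overlap, as for 13.4% of all features in this direction. The difference of 0.45 did not pass the threshold over all rows (SE 0.14, limma adjusted p = 0.0912). After normexp background correction it was 0.48 and passed (adjusted p = 0.0195). Among all features, 97.1% had a smaller difference than the 3′ probe and 89.1% a smaller one than the 5′ probe. Under scaling to E1A control probes (all 10, or the 6 above background and not saturated) and with slide as a fixed block, the 3′ probe kept 0.74, 0.68 and 0.79 but not the call (limma adjusted p = 0.1, 0.0717 and 0.0998).

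In deleted cells both Gapdh probes rose on the scaled values. Mouse-GAPDH_3 stood at 4.36, 4.25 and 4.20 with PBS and at 5.29, 5.18 and 5.28 with CoCl2, a rise of 0.98, or 1.98-fold (SE 0.13, limma adjusted p = 0.000207). Mouse-GAPDH_5 stood at 6.54, 6.45 and 6.55 with PBS and at 7.25, 7.40 and 7.44 with CoCl2, a rise of 0.85, or 1.80-fold (SE 0.14, adjusted p = 0.00051). The groups did not overlap for either probe, as for 24.1% of all features in this direction. In this contrast 19.9% of features passed and were higher. There were 4073 features with a larger difference than the 3′ probe and 6038 with a larger one than the 5′ probe. The difference between the genotypes' responses was 0.13 (95% interval -0.27 to 0.54) for the 3′ probe and 0.41 (-0.01 to 0.82) for the 5′ probe, with limma adjusted p of 0.633 and 0.15. Of the 4 probes none passed the test of this difference on the scaled values.

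**Figure D1:**
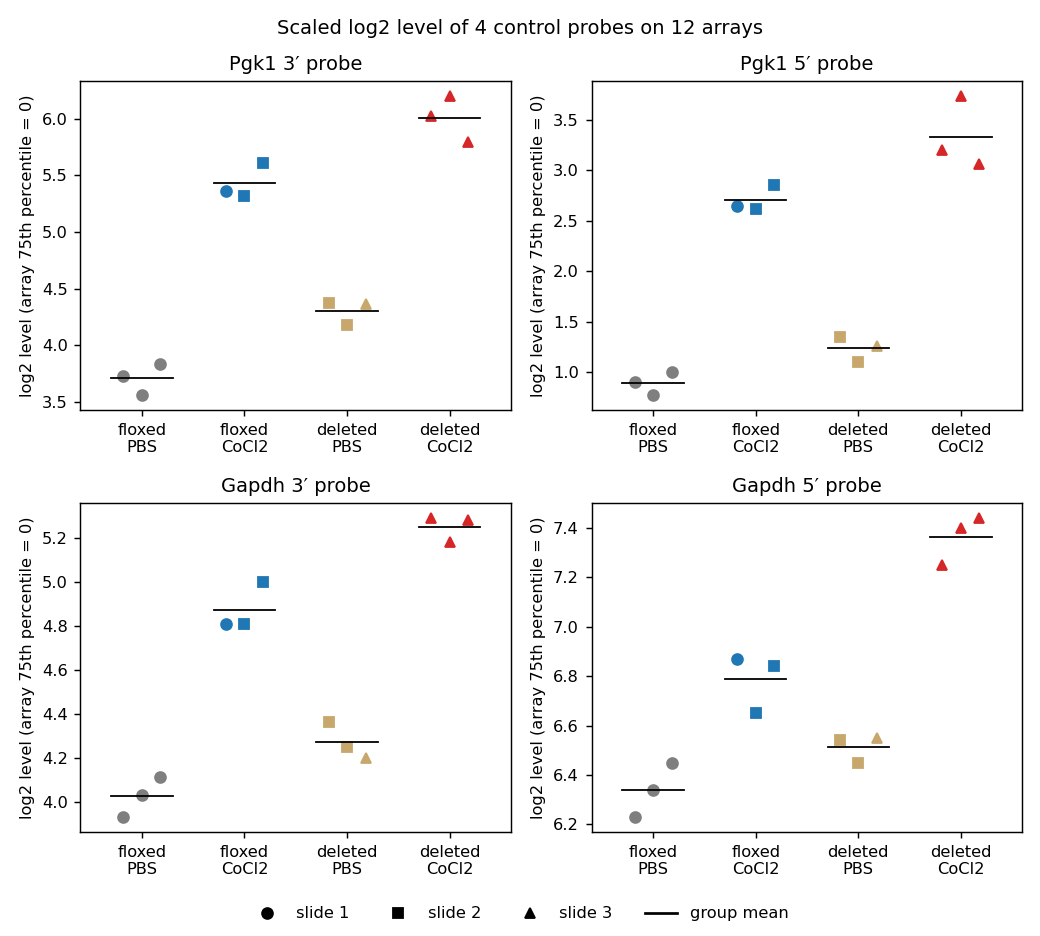
Scaled log2 level (array 75th percentile set to 0) of the Pgk1 and Gapdh 3′ and 5′ control probes on 12 arrays, by group. Points are arrays, their shape gives the slide, and lines are group means of 3 arrays; for all 4 probes and in both genotypes each CoCl2 array lies above each PBS array of the same genotype.

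Without scaling, Gapdh showed no called rise in deleted cells, while Pgk1 still rose. The unscaled processed signal of the Pgk1 3′ probe was 11601, 10223 and 12701 on the deleted PBS arrays and 19051, 24637 and 16919 on the deleted CoCl2 arrays. That of the Gapdh 3′ probe was 11556, 10706 and 11330 with PBS and 11522, 12207 and 11821 with CoCl2, and the groups overlapped. Without scaling, the CoCl2 difference in deleted cells was 0.80 for the Pgk1 3′ probe (limma adjusted p = 0.00396), 1.20 for the Pgk1 5′ probe, 0.082 for the Gapdh 3′ probe (adjusted p = 0.695) and -0.050 for the Gapdh 5′ probe (adjusted p = 0.82). The median feature then stood at -1.04. The lower 75th percentile of the deleted CoCl2 arrays moves with these values, and its part in them was not tested.

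The distance from the median feature is the same under every scaling that subtracts 1 value per array. In floxed cells it was 1.70 and 1.80 for the Pgk1 3′ and 5′ probes and 0.83 and 0.42 for the Gapdh 3′ and 5′ probes. In deleted cells it was 1.84 and 2.23 for Pgk1 and 1.12 and 0.99 for Gapdh. Quantile normalization, which changes values by their rank, gave 1.26 and 1.83 for Pgk1 and 0.60 and 0.31 for Gapdh in deleted cells. Under it the Gapdh 5′ probe lost its call there, with a difference of 0.29 (limma adjusted p = 0.0918), and it did so too with normexp and quantile normalization together, at 0.27 (adjusted p = 0.0727).

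**Figure D2:**
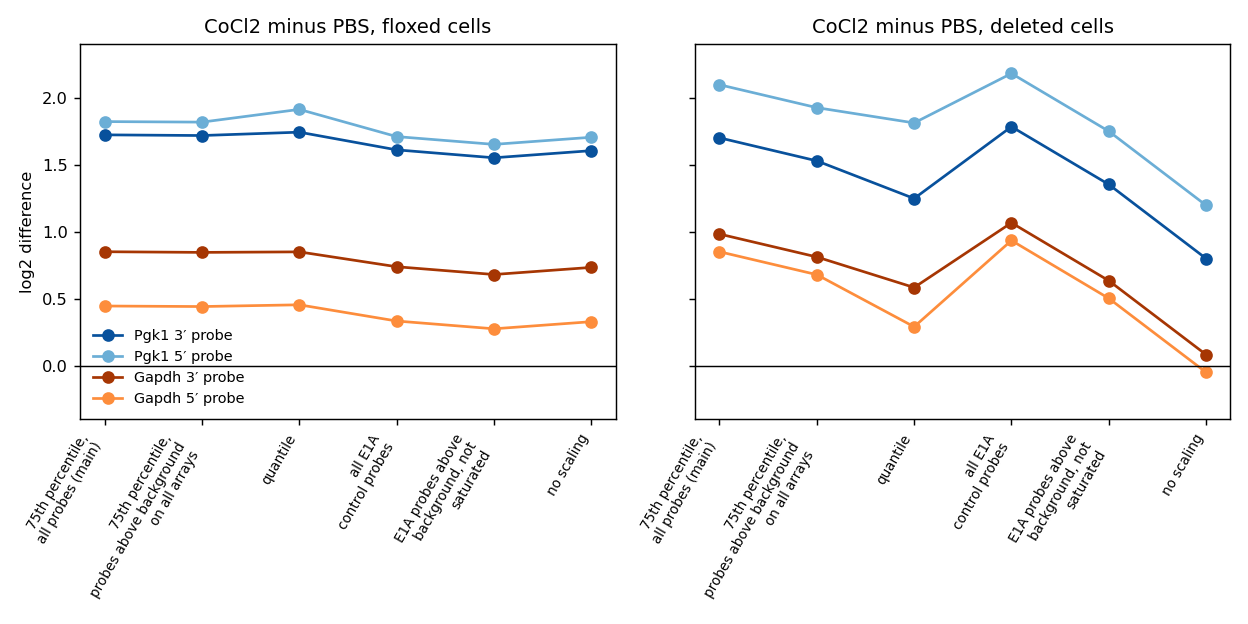
Log2 difference between CoCl2 and PBS arrays of the 4 probes (lines) under 6 ways to scale the arrays (horizontal axis), in floxed cells (left) and deleted cells (right). In floxed cells the 3′ probe of Pgk1 stays between 1.55 and 1.74 under these scalings; in deleted cells, without scaling, the Pgk1 3′ probe stands at 0.80 and the Gapdh 5′ probe at -0.050.

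Pgk1 was next set against Gapdh within each array, where scaling by 1 value per array cancels. The 2 probes of a pair have different affinities, so only changes of this difference can be read. For the 3′ probes, Pgk1 minus Gapdh was -0.20, -0.46 and -0.28 on the floxed PBS arrays and 0.55, 0.51 and 0.61 on the floxed CoCl2 arrays. In deleted cells it was 0.01, -0.07 and 0.16 with PBS and 0.73, 1.01 and 0.52 with CoCl2. In both genotypes every CoCl2 array lay above every PBS array, and Pgk1 gained on Gapdh by 0.87 with floxed alleles (95% interval 0.53 to 1.22). With the deletion it gained 0.72 (0.37 to 1.06). The intervals use the prior spread of the limma fit.

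The 5′ probes gave larger changes. Pgk1 minus Gapdh was -5.33, -5.57 and -5.45 on the floxed PBS arrays and -4.22, -4.03 and -3.98 on the floxed CoCl2 arrays. It was -5.19, -5.35 and -5.30 with PBS and -4.05, -3.66 and -4.38 with CoCl2 in deleted cells. The rises were 1.38 (95% interval 0.98 to 1.77) and 1.25 (0.85 to 1.64), again without overlap. With CoCl2 labels permuted within each genotype (400 arrangements), the mean rise over both genotypes was 0.79 for the 3′ and 1.31 for the 5′ probes, each with a two-sided exact permutation p = 0.005, the smallest this design allows (0.0133 after adjustment over 8 such tests). Within 1 genotype, 3 against 3 arrays cannot go below an exact p of 0.1, which all 4 of these comparisons reached. The difference between the genotypes' changes was -0.15 (-0.64 to 0.33) for the 3′ and -0.13 (-0.69 to 0.43) for the 5′ probes.

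**Figure D3:**
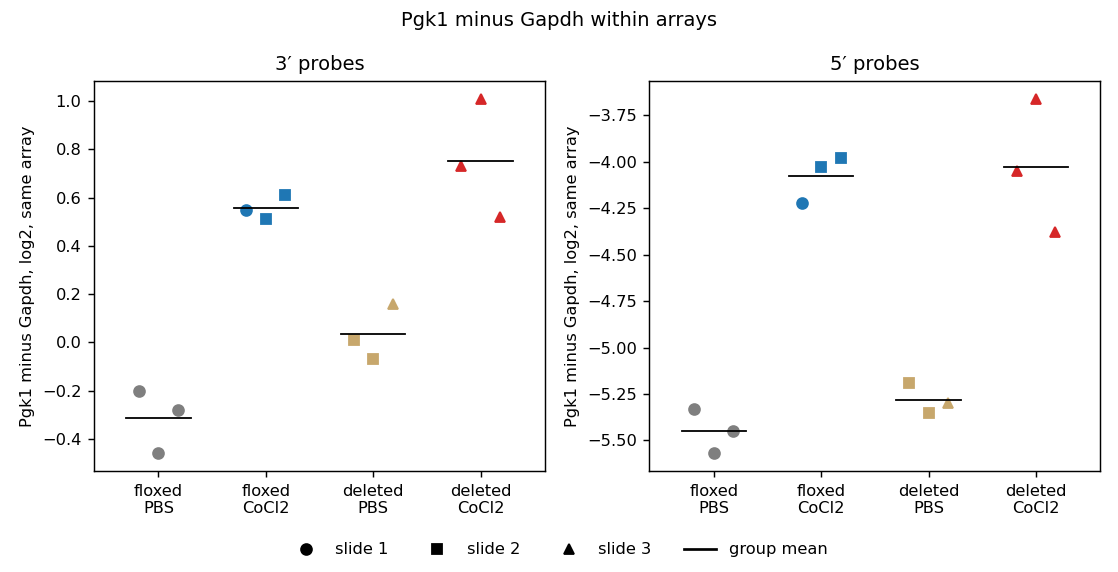
Pgk1 minus Gapdh on the same array (log2), for the 3′ probes (left) and the 5′ probes (right), by group. Points are arrays with shapes for slides, and lines are means of 3 arrays; CoCl2 arrays lie between 0.51 and 1.01 for the 3′ probes, and PBS arrays between -0.46 and 0.16.

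Treatment and slide were partly separable. On slide 1, the CoCl2 array of floxed cells read 5.36 for Mouse-PGK1_3, and the 3 PBS arrays there read 3.56 to 3.83. For the Gapdh 3′ probe it stood at 4.81 against 3.93 to 4.11. On slide 3, the deleted PBS array stood at 4.36 for Pgk1 and 4.20 for Gapdh, and the 3 CoCl2 arrays at 5.79 to 6.20 and at 5.18 to 5.29. On the scaled values, all 4 probes within both slides were higher on each CoCl2 array than on each PBS array of the same genotype. Unscaled, the Gapdh 5′ probe on slide 3 read 57847 on the PBS array and 44900, 56820 and 53056 on the CoCl2 arrays. That probe kept the order on slide 1 without scaling, and the other probes kept it on both slides. With slide as a fixed block, the Pgk1 3′ probe rose by 1.65 in floxed cells (limma adjusted p = 0.0192). The rise with the deletion was 1.64 (limma adjusted p = 0.00321). Every PBS array on slides 1 and 3 had a lower position number than any CoCl2 array, so there treatment and position cannot be told apart.

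Without CoCl2, deletion of Hif1a gave smaller differences, none past the threshold. The Pgk1 3′ probe was higher in deleted than in floxed PBS cells by 0.59 (SE 0.16, limma adjusted p = 0.0631), and the deleted arrays (4.18 to 4.37) lay above the floxed ones (3.56 to 3.83). The Pgk1 5′ probe differed by 0.35 (SE 0.18, adjusted p = 0.232), the Gapdh 3′ probe by 0.25 (SE 0.13, adjusted p = 0.237) and the Gapdh 5′ probe by 0.18 (SE 0.14, adjusted p = 0.399). The groups did not overlap for the first 3 of these 4 probes, as for 21.2% of all features in this direction. Of all features 0.52% passed as higher and 0.997% as lower. The value of the Pgk1 3′ probe passed in 3 of 27 alternatives. These were the fit of these 6 arrays alone (limma adjusted p = 0.0413), normexp (0.573, adjusted p = 0.0267) and the fit without deleted CoCl2 array 2 (adjusted p = 0.0481). It did not pass with slide as a fixed block (0.46, adjusted p = 0.384), without scaling (0.31, adjusted p = 0.356) or after quantile normalization (0.38, adjusted p = 0.155). No slide held PBS arrays of both genotypes, so deletion and slide cannot be told apart within a slide. Cald1, a smooth muscle marker, read through a clone, was higher with the deletion on the scaled values. Its difference was 0.66 under PBS (limma adjusted p = 0.071) and 0.69 under CoCl2 (limma adjusted p = 0.00723). Under CoCl2, 30.6% of all features passed as higher with the deletion. Leaving out the scaling moves all features alike, and under CoCl2 the Pgk1 3′ probe then turned from 0.57 to -0.50. Cald1 was not tested without scaling, and its part in these differences was not tested.

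Under CoCl2, all 4 probes were higher in deleted than in floxed cells on the scaled values, and this order turned with the scaling. No slide held CoCl2 arrays of both genotypes, so deletion and slide cannot be told apart within a slide here either. The difference was 0.57 for the Pgk1 3′ probe (SE 0.16, limma adjusted p = 0.00726), 0.62 for the Pgk1 5′ probe (adjusted p = 0.0108), 0.38 for the Gapdh 3′ probe (adjusted p = 0.0238) and 0.58 for the Gapdh 5′ probe (adjusted p = 0.00274). In this contrast 30.6% of all features passed and were higher, 36.4% passed and were lower, 30.9% were higher without overlap, and 20745 of 70909 features had a larger difference than the Pgk1 3′ probe. With slide as a fixed block none of the 4 passed (adjusted p = 0.284, 0.262, 0.185 and 0.116). Without scaling the values were -0.50, -0.45, -0.69 and -0.49, with limma adjusted p of 0.0484, 0.107, 0.00437 and 0.0348, so 3 of the 4 passed as lower. The quantile-normalized values were -0.11, 0.17, -0.24 and -0.19. Scaled to the 75th percentile of probes above background on all arrays, none of the 4 passed. Pgk1 minus Gapdh within arrays differed between genotypes under CoCl2 by 0.19 for the 3′ probes (95% interval -0.15 to 0.54) and by 0.041 for the 5′ probes (-0.36 to 0.44). Under PBS it was 0.35 higher in deleted cells for the 3′ probes (0.004 to 0.695) and 0.17 higher for the 5′ probes (-0.23 to 0.57). With genotype labels permuted within each treatment, the mean difference over both treatments was 0.27 for the 3′ probes (two-sided exact permutation p = 0.015, 0.024 adjusted over 8 tests) and 0.11 for the 5′ probes (p = 0.395, adjusted 0.395). Each deletion comparison shares its arrays with the CoCl2 comparisons above.

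**Figure D4:**
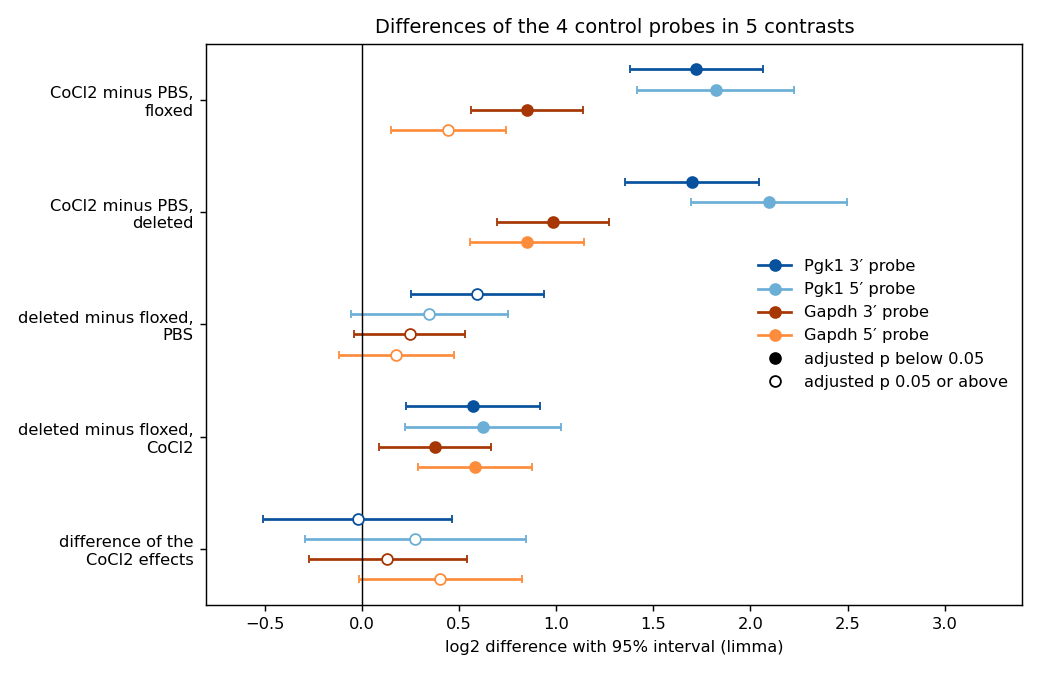
Log2 differences of the 4 probes with 95% intervals from limma, in the CoCl2 contrast of each genotype, the deletion contrast of each treatment and the difference of the CoCl2 effects. Filled points have an adjusted p below 0.05; both Pgk1 probes lie between 1.70 and 2.10 in the CoCl2 contrasts, and no difference of the CoCl2 effects passes.

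The 2 ends of a transcript serve as a sign of RNA quality and amplification. Pgk1 3′ minus 5′ signal was 2.83, 2.79 and 2.84 on floxed PBS arrays, 2.71, 2.70 and 2.75 on floxed CoCl2 arrays, 3.01, 3.08 and 3.11 on deleted PBS arrays and 2.82, 2.46 and 2.73 on deleted CoCl2 arrays. In both genotypes the CoCl2 arrays were the lower ones. The mean fall over both genotypes, -0.25, had a two-sided exact permutation p = 0.005 (0.0133 adjusted over 8 tests). For Gapdh the same difference moved the other way by 0.27, with an exact permutation p = 0.015 (adjusted 0.024). It was -2.33 to -2.30 on floxed PBS, -2.06 to -1.84 on floxed CoCl2, -2.35 to -2.18 on deleted PBS and -2.22 to -1.96 on deleted CoCl2 arrays, and only the floxed groups did not overlap. In floxed cells the Gapdh shift was 0.40 (95% interval 0.11 to 0.70), beside a difference of 0.45 for the Gapdh 5′ probe and of 0.85 for the 3′ probe. The Pgk1 shift was -0.10 (-0.40 to 0.20) in floxed and -0.40 (-0.69 to -0.10) in deleted cells. The part of these shifts in the differences of either gene was not tested.

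The arrays also carried probes for Pgk1 and Gapdh named for human and rat, chosen here by name. In mouse RNA, 3 of these 4 Pgk1 probes followed the mouse probes. With CoCl2 the human 3′ probe rose by 1.48 in floxed and by 1.38 in deleted cells, the human 5′ probe by 1.57 and 1.52, and the rat 5′ probe by 1.76 and 1.98, all with limma adjusted p of at most 0.000721 (n = 3 per group). The rat 5′ probe deviated from its group means together with the mouse 5′ probe, with a Pearson correlation of 0.985 over 12 arrays that share their RNA. Of the human and rat Gapdh probes, the human 5′ probe passed in floxed cells (0.86, adjusted p = 0.0369), and the human 3′ and rat 5′ probes passed in deleted cells (1.11 and 1.02, adjusted p = 0.000112 and 0.00046). The human 3′, rat 3′ and rat 5′ probes did not pass in floxed cells (0.48, 0.44 and 0.59, adjusted p = 0.0623, 0.233 and 0.0589). The human 5′ probe did not pass in deleted cells (0.30, adjusted p = 0.241). Its floxed call was kept in 14 of 28 alternatives, and the human 3′ call in deleted cells was lost without scaling (0.21, adjusted p = 0.313). The rat 5′ call in deleted cells was kept in 27 of 28 alternatives, with values down to 0.117 and a highest limma adjusted p of 0.593. Of all features 2.31% passed as higher in floxed and 19.9% in deleted cells.

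The rat 3′ probes of both genes went the other way in deleted cells. The rat Pgk1 3′ probe stood at -0.63, -0.57 and -0.71 on floxed PBS arrays and at -0.23, 0.46 and 0.89 on floxed CoCl2 arrays. It stood at -1.22, -1.06 and -2.53 on deleted PBS arrays and did not clear background on the 3 deleted CoCl2 arrays (called not well above background). Each of these dim arrays was therefore also entered at the lowest level of any probe well above background on it, or at the probe's own level if that was higher. The probe was then at least 3.48-fold lower than with PBS and at least 13.7-fold lower than in floxed CoCl2 cells, on the scaled values. The fitted differences, which use the measured dim levels, were -3.595 and -5.576 (limma adjusted p = 4.95e-05 and 2.73e-06). Over the alternatives run, the difference from PBS ranged from -4.496 to -0.981. The rat Gapdh 3′ probe stood at 4.02, 3.98 and 3.42 on deleted PBS arrays and at 2.78, 3.16 and 2.93 on deleted CoCl2 arrays, and fell by 0.85 (adjusted p = 0.00272). With slide as a fixed block its difference was -0.46 and did not pass (adjusted p = 0.119). In both cases the lowest deleted PBS array was number 3, the one on slide 3 with the deleted CoCl2 arrays. The files do not give the letters of these probes, and what RNA they read was not tested.

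**Figure D5:**
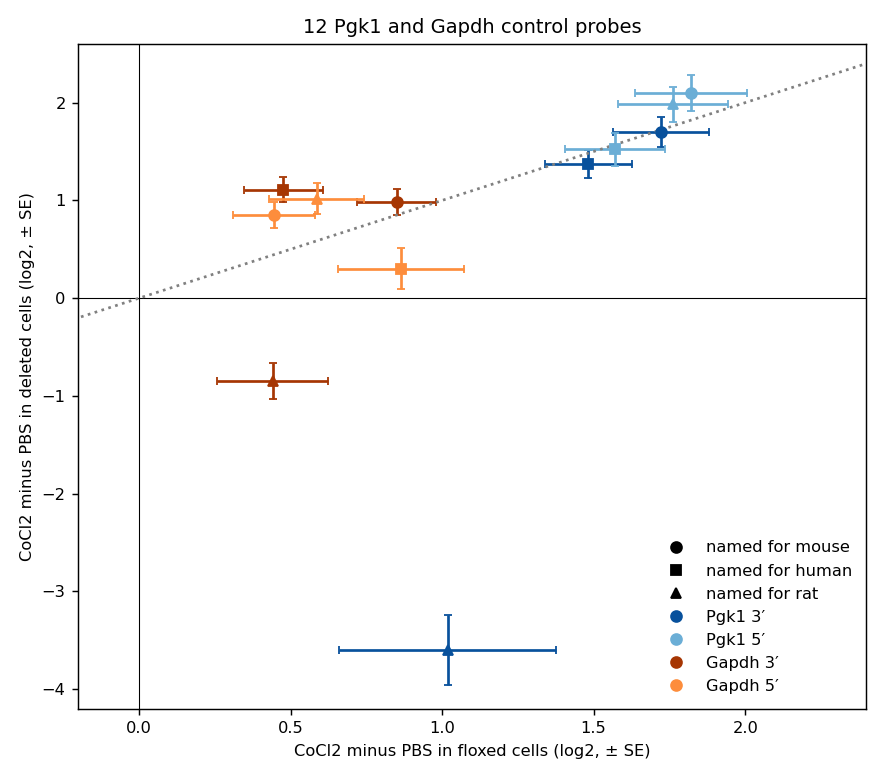
CoCl2 minus PBS difference (log2, with SE) in floxed cells (horizontal axis) and in deleted cells (vertical axis) for 12 control probes named for mouse, human or rat Pgk1 and Gapdh; the dotted line marks equal values. Of the 12, the rat 3′ probes of Pgk1 and Gapdh are the ones below 0 in deleted cells; that of Pgk1 is a fitted value against arrays where the probe was not well above background.

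The members moved together across arrays, mostly between groups. Over the 12 arrays the Pearson correlation of scaled levels was 0.991 between the Pgk1 probes, 0.943 between the Gapdh probes and 0.983 between the 3′ probes of the 2 genes. For deviations from the group means, it was 0.896, 0.384 and 0.264. These values share the array scaling and are given as descriptions.

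Among 165 tested features with an established gene symbol, the patterns most like the Pgk1 3′ probe over the 12 arrays were those of Mir22hg, the host transcript of a microRNA (Pearson r = 0.951), Smap1, named for a protein of membrane traffic (0.936), and Brip1os (0.915). The most like the Gapdh 3′ probe were Mir22hg (0.945), Smap1 (0.906) and Hk1os (0.899), named as the opposite strand of hexokinase 1, which starts glycolysis. Hk1os stood at -3.36, -3.12 and -3.09 on floxed PBS arrays, -2.81, -2.67 and -2.35 on floxed CoCl2, -2.74, -2.88 and -2.93 on deleted PBS and -2.28, -2.27 and -1.58 on deleted CoCl2 arrays. It rose with CoCl2 in deleted cells by 0.81 (SE 0.21, limma adjusted p = 0.00691) and differed by 0.58 in floxed cells, which did not pass (adjusted p = 0.155). Smap1 differed by 0.50 and 0.57 and Brip1os by 0.69 and 1.03 in floxed and deleted cells, and both passed in deleted cells (adjusted p = 0.008 and 0.00236) but not in floxed ones (0.0883 and 0.103). Mir22hg rose by 0.76 and 1.14 (adjusted p = 0.0253 and 0.000346). These genes were chosen for their likeness, over the same 12 arrays, to probes that rose with CoCl2. Their CoCl2 p-values are therefore not independent of the choice and are given as descriptions. Beside them, 2.31% of all features passed as higher in floxed cells and 19.9% in deleted cells. By rank correlation the order differed. For Pgk1 it placed Mir22hg at rank 1 of 165 (Spearman 0.986), Brip1os at 5 (0.902) and Smap1 at 6 (0.895). For Gapdh it placed Hk1os at 1 (0.972), Mir22hg at 2 (0.958) and Smap1 at 3 (0.902).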

How the data were processed

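Cy3-labelled RNA of 12 samples was hybridised to single-colour Agilent arrays, per the labels' protocols. The authors' deposited scanner files hold linear intensity per spot per the file headers (Feature Extraction 11.5.1.1, the version the file headers name; 9.1 is in the submitters' processing notes). The deposited value table holds log2 values that differ from these by a constant per array for the 4 members. Its 75th percentile was 0 on each array, and the sources used here do not state how the authors made it. It is among the alternatives run and lies close to the main setting. Gene names and promoters came from RefSeq (GRCm38.p6); of 13017 probes with a RefSeq accession 4656 matched.

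Spots with outlier marks were left out (14 of 480 member spots), log2 processed signals were averaged per probe, and the 75th percentile was subtracted. Limma 3.58.1 in R 4.3.3 was fitted to 70921 rows: 70909 probes well above background in every array of 1 or more groups, and 12 control probes. The fit had 1 mean per group, 8 residual and 3.51 prior degrees of freedom, and the Benjamini-Hochberg threshold was 0.05. It was tested on simulated data. Within-array differences had exact permutation tests, and intervals from the same prior. The precision is limited by 3 arrays per group. Normexp (offset 50) used median signals, as the files hold no mean signals. Alternatives covered scaling, background, spots, filter, slide, replicate number and left-out arrays. Members, lists and tests were chosen with earlier results of these data known. The text names the 4 members, listed genes with a named probe, and the 3 established symbols most correlated with each 3′ probe; human and rat probes were taken by name.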

Additional observations from a re-analysis of the deposited data

Results flagged for a closer look

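In 3 of the 12 Pgk1 and Gapdh control probes the CoCl2 response differed between the genotypes by the test of the difference itself, and all 3 were named for other species. Of these, 1 was higher and 2 were lower, beside 2.61% and 18.2% of all features in the same test, so the count is no result about these probes. The rat Pgk1 3′ probe differed by -4.61 on the log2 scale (deleted minus floxed response, limma adjusted p = 0.000791, n = 3 per group). This fitted value includes deleted CoCl2 arrays on which the probe was not well above background. The rat Gapdh 3′ probe differed by -1.29 (adjusted p = 0.00741), and the human Gapdh 3′ probe by 0.63 (adjusted p = 0.0326). Over the alternatives run, the call was kept in 27 of 27 for the rat Pgk1 3′ probe, in 26 of 27 for the rat Gapdh 3′ probe and in 11 of 27 for the human Gapdh 3′ probe. Of the 4 mouse probes none passed this test in the main setting.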

How the results depend on the processing

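The CoCl2 rises of both Pgk1 probes passed in all 28 alternatives run in each genotype, from 1.55 to 1.78 (3′) and 1.65 to 1.91 (5′) in floxed cells and from 0.80 to 1.80 and 1.20 to 2.23 in deleted cells. The cause of the changes below was not tested. Bright probes are those well above background on all 12 arrays.

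For CoCl2 in floxed cells, the Gapdh 3′ probe lost the call at 0.68 (6 E1A probes), 0.74 (10 E1A probes) and 0.79 (fixed slide block), and the Gapdh 5′ probe gained it with normexp at 0.48 and with normexp and quantile normalization at 0.47. In deleted cells, without scaling, the Gapdh 3′ probe lost the call at 0.082 and the 5′ probe turned to -0.050; the 5′ probe also lost it at 0.29 (quantile) and 0.27 (normexp and quantile).

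For deletion under CoCl2, values of the Pgk1 3′, Pgk1 5′, Gapdh 3′ and Gapdh 5′ probes were, in that order, 0.28, 0.33, 0.088 and 0.29 with the 75th percentile of bright probes, 0.31, 0.36, 0.12 and 0.32 with 6 E1A probes, and 0.45, 0.56, 0.45 and 0.57 with a fixed slide block, with every call lost. They were -0.50, -0.45, -0.69 and -0.49 without scaling (all but the Pgk1 5′ probe past the threshold as lower), -0.11, 0.17, -0.24 and -0.19 after quantile normalization, and -0.13, 0.16, -0.24 and -0.20 with normexp and quantile normalization. The Gapdh 3′ probe also lost the call with normexp (0.24) and in the fit of the 6 arrays (0.38), and the Pgk1 5′ probe in the latter (0.62). Leaving out 1 array gave 0.35 to 0.44 for the Gapdh 3′ probe, with the call lost without deleted CoCl2 array 1 and floxed CoCl2 array 1 or 2.

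For deletion under PBS, the Pgk1 3′ probe gained the call in 3 of 27 alternatives. These were normexp (0.57), the 6 arrays alone (0.59) and the fit without deleted CoCl2 array 2. It stayed without the call at 0.46 (fixed slide block), 0.31 (no scaling) and 0.38 (quantile), and left-out arrays gave 0.52 to 0.66. The Gapdh 3′ probe turned to -0.043 without scaling, and the Gapdh 5′ probe to -0.11 without scaling, -0.022 (quantile) and -0.006 (normexp and quantile).

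Of the differences of the CoCl2 effects, that of the Pgk1 3′ probe was -0.81 without scaling, past the threshold (limma adjusted p = 0.0404; over all alternatives 0.0404 to 0.989), 0.17 with 10 E1A probes and -0.12 to 0.082 over left-out arrays. The Pgk1 5′ probe turned to -0.51, -0.10 and -0.10, the Gapdh 3′ probe to -0.65, -0.27 and -0.24 and the Gapdh 5′ probe to -0.38, -0.16 and -0.20 (without scaling, quantile, normexp and quantile). The Gapdh 3′ probe was also at -0.035 with the 75th percentile of bright probes and at -0.045 with 6 E1A probes.

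Pgk1 minus Gapdh for the 5′ probes under CoCl2 in deleted cells moved to 1.52 (quantile) and 1.47 (normexp and quantile), for deletion under CoCl2 to 0.36 and 0.36, for deletion under PBS to -0.038 (fixed slide block), and for the difference of effects to 0.10 (normexp and quantile). For the 3′ probes it moved to -0.005 for deletion under CoCl2 (fixed slide block). The human Gapdh 3′ probe's difference of effects turned to -0.15 without scaling. The human Gapdh 5′ probe in deleted cells turned to -0.60 (no scaling), -0.11 (quantile, and normexp and quantile) and -0.046 (6 E1A probes).

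Same-numbered floxed arrays deviated together (correlations 0.396 to 0.452, 6 of 6 matching their own number best). Deleted arrays did so less (-0.144, 0.285 and 0.235 for numbers 1, 2 and 3, with 3 of 6 matching best). With the replicate block the Pgk1 3′ rise was 1.72 and 1.70 (limma adjusted p = 0.00195 and 0.000183), and neither replicate block changed the call of any member.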
